A study of Mus musculus with 21 samples.

Results

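*Dusp6*, *Fos* and *Eps8* are 3 genes of growth factor signalling. Each held a region that carried less methylated DNA in mouse intestinal adenoma than in normal intestine. The genes were grouped by their names. Their members are all listed differentially methylated windows and merged regions (DMRs) that overlap the gene body or the 1000 bp upstream of it in the mm9 genome. This gave 11 of the 17690 listed windows, with 4 at *Dusp6*, 3 at *Fos* and 4 at *Eps8*, and 3 of the 13980 merged DMRs, 1 per gene. All 14 were on the hypomethylated lists and 0 on the hypermethylated lists. A listed hypomethylated window is a 500 bp stretch that passed a rank test of adenoma against normal intestine on these same samples, together with minimum limits on the ratio and the signal, and only 0.113% of the 10232838 windows of the genome were listed this way. The members were thus chosen by the difference in MeDIP signal between adenoma and normal intestine, which is described here and was not tested again.

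The assay was MeDIP-seq, in which an antibody against 5-methylcytidine pulls down methylated DNA fragments for sequencing. The samples were ileum of male C57BL/6J mice aged 15 to 19 weeks, and each was bulk tissue of 1 animal or 1 excised adenoma. Normal intestine came from 3 wild type mice (Apc-+/+, called B6, samples B1 to B3) and from 3 Apc-Min/+ mice (called APC Min, samples N4 to N6), and 5 adenomas came from APC Min mice (Ad4, Ad4-1, Ad5, Ad6 and Ad7). APC Min mice carry 1 truncated copy of *Apc* in every cell, so normal and adenoma tissue of these mice share that allele. Animals 4, 5 and 6 each gave normal tissue and adenoma, with 2 adenomas from animal 4. The titles number the libraries in 4 series, and series 4 (B1, B2, N4, Ad4, Ad4-1), series 9 (N5, N6, Ad5) and series 10 (B3, Ad6) hold both tissues. Depth was 13878615 to 26297510 uniquely aligned reads per MeDIP library. Values are coverage per 1000000 aligned reads (rpm), and n is 6 for normal and 5 for adenoma. In bulk tissue, fewer cells that carry methylation and less methylation per cell cannot be told apart, and the tissue label could not be checked against marker genes, since no expression values were used.

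Growth factors such as EGF bind receptors on the intestinal epithelium and activate the Ras, Raf, MEK and ERK kinase cascade, which drives proliferation. *Dusp6* encodes a cytoplasmic phosphatase that removes the activating phosphates from ERK and is itself switched on by ERK, so it closes a negative feedback loop. *Fos* is an immediate early gene, transcribed within minutes of ERK activation, and its protein pairs with Jun proteins to form the transcription factor AP-1. *Eps8* encodes a substrate of the EGF receptor that joins receptor signalling to Rac and to the actin cytoskeleton.

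The *Dusp6* DMR lay at chr10:98728251-98729500 (mm9). It began 2386 bp downstream of the 5′ end of this 4.26 kb gene on the plus strand. It spanned the end of an intron, 305 coding bases of the last exon of its CCDS transcript, and 570 bases of stop codon and 3′ UTR. The *Fos* DMR lay at chr12:86817001-86818000, in the last exon of a 3.38 kb gene on the plus strand. It began 2161 bp from the 5′ end and held 405 coding bases and 595 bases of stop codon and 3′ UTR of the CCDS transcript. The *Eps8* DMR lay at chr6:137530751-137532000, entirely inside an intron of a 178 kb gene on the minus strand, between 71397 and 72646 bp downstream of the 5′ end. An intronic position is common among the 8845 hypomethylated DMRs, of which 42.7% lay in a protein-coding gene and touched no exon. A stop codon is less common there, with 97 of 8845 (1.10%), and these 97 include *Dusp6* and *Fos*. These shares describe the listed regions and carry no test.

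The sequence of 300 bases from each DMR is shown because MeDIP signal depends on methylated CpG sites, which are in capitals here. The sequences were read 5′ to 3′ on the plus strand of NCBIM37, the assembly also named mm9, at chr10:98728631-98728930 for the coding end of *Dusp6*, at chr12:86817106-86817405 for the coding end of *Fos* and at chr6:137530951-137531250 for the *Eps8* intron.
Dusp6: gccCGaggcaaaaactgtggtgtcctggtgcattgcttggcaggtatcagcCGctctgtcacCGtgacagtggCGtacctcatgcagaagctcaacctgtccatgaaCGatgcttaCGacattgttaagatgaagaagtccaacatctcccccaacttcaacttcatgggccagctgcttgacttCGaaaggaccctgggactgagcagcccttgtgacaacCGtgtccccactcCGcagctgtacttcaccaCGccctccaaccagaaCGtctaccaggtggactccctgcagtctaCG
Fos: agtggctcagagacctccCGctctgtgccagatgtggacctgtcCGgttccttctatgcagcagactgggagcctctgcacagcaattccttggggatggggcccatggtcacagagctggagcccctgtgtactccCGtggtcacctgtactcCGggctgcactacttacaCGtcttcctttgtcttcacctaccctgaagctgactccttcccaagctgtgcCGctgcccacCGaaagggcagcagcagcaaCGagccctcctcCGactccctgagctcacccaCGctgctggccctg
Eps8: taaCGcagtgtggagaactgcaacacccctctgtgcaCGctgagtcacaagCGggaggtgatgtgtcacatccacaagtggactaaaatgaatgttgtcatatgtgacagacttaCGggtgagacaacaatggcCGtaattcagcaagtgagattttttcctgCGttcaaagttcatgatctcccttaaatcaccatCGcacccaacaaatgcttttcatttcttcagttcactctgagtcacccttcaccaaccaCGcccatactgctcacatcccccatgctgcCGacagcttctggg
These stretches hold 12 CpG sites at *Dusp6*, 10 at *Fos* and 9 at *Eps8*. Over the whole DMRs the counts were 22 sites in 1250 bp at *Dusp6*, 25 in 1000 bp at *Fos* and 27 in 1250 bp at *Eps8*. With observed to expected CpG ratios of 0.351, 0.389 and 0.405, none of the 3 DMRs was as CpG-dense as the promoters of *Dusp6* (78 sites in 1500 bp, ratio 0.726) or *Fos* (80 sites, ratio 0.655). The *Eps8* promoter was CpG-poor, with 18 sites and a ratio of 0.270. No row of any list overlapped the promoter of the 3 genes, counted from 1000 bp upstream to 500 bp downstream of the 5′ end. Among 22380 protein-coding genes, only 167 had a hypomethylated and 183 a hypermethylated promoter DMR, so nothing is read from this absence.

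The windows nevertheless held more CpG sites than most of the genome. The median was 3 sites in the windows of the genome and 8 in the listed hypomethylated windows, while 10 of the 11 member windows held 8 to 17 and the last *Dusp6* window held 4. The *Fos* windows with 17 and 16 sites are matched or exceeded by 3.31% and 4.71% of listed hypomethylated windows. The letters TGACTCA, a common form of the AP-1 site, were searched on both strands after the sequences had been read. They occurred 3 times in the *Eps8* DMR, from 137530991, 137531186 and 137531517, of which the first 2 lie in the printed stretch in lower case as tgagtca. They occurred once at *Fos*, from 86817702, and 0 times at *Dusp6*. This put the motif in 6 of the 11 overlapping windows, in 19.8% of all listed hypomethylated windows, in 6.27% of listed hypermethylated windows and in 7.68% of windows of the genome. A match of 7 letters is a description of the sequence and not a bound site.

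Across the *Dusp6* DMR the signal was low in each adenoma. Each value of a merged DMR is the median over its windows, here 4. Its values were 0.73, 1.04 and 1.05 rpm in B1, B2 and B3, and 0.80, 0.55 and 0.63 rpm in N4, N5 and N6. The adenomas Ad4, Ad4-1, Ad5, Ad6 and Ad7 had 0.24, 0.25, 0.28, 0.26 and 0.20 rpm. The highest adenoma thus lay 0.27 rpm below the lowest normal sample. The means were 0.246 ± 0.0297 rpm (SD, n = 5) in adenoma and 0.800 ± 0.208 rpm (SD, n = 6) in normal intestine, so that adenoma held 30.8% of the normal signal. The coefficient of variation of these medians was 12.1% over the adenomas and 26.0% over the normal samples, and in the single windows it was 14.9% to 35.8% and 24.7% to 40.1%. On the log2(rpm + 0.05) scale the ratio of the group means was -1.52, and 10 of the 8845 hypomethylated DMRs had a larger loss on that scale. The median over all of them was -0.64.

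At *Fos* the signal was high in every tissue, and adenomas kept about as much of it as they lost. The *Fos* window named by the rule, chr12:86817251-86817750, had 2.34, 2.55 and 2.50 rpm in B1, B2 and B3 and 2.07, 2.16 and 2.01 rpm in N4, N5 and N6. The adenomas Ad4, Ad4-1, Ad5, Ad6 and Ad7 had 0.94, 0.82, 1.44, 1.11 and 1.47 rpm. The 2 adenomas of animal 4 were lowest, Ad5 and Ad7 were highest, and no adenoma reached the lowest normal value. The means were 1.16 ± 0.292 rpm (SD, n = 5) in adenoma and 2.27 ± 0.226 rpm (SD, n = 6) in normal intestine, or 50.9% of normal, with a log2 ratio of -0.94. Only 8 of the 11567 listed hypomethylated windows had a higher mean in normal intestine, and 1 had a larger loss in rpm, which was 1.12 rpm at *Fos* against a median of 0.174 rpm. On the log2 scale 12.5% of the windows had a larger loss. The loss at *Fos* thus ranked higher in rpm, in which a high starting level counts, than as a ratio.

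At *Eps8* the adenomas were also below the normal samples. The window named by the rule, chr6:137531001-137531500, had 0.77, 0.54 and 0.78 rpm in B1, B2 and B3 and 0.63, 0.62 and 0.83 rpm in N4, N5 and N6. The adenomas Ad4, Ad4-1, Ad5, Ad6 and Ad7 had 0.28, 0.15, 0.11, 0.33 and 0.40 rpm. Ad5 and Ad4-1 were lowest and Ad7 was highest, 0.14 rpm below the lowest normal sample. The means were 0.254 ± 0.122 rpm (SD, n = 5) in adenoma and 0.695 ± 0.114 rpm (SD, n = 6) in normal intestine, which is 36.5% of normal and a log2 ratio of -1.29. A larger log2 loss was found in 1.37% of listed hypomethylated windows.

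**Figure D1:**
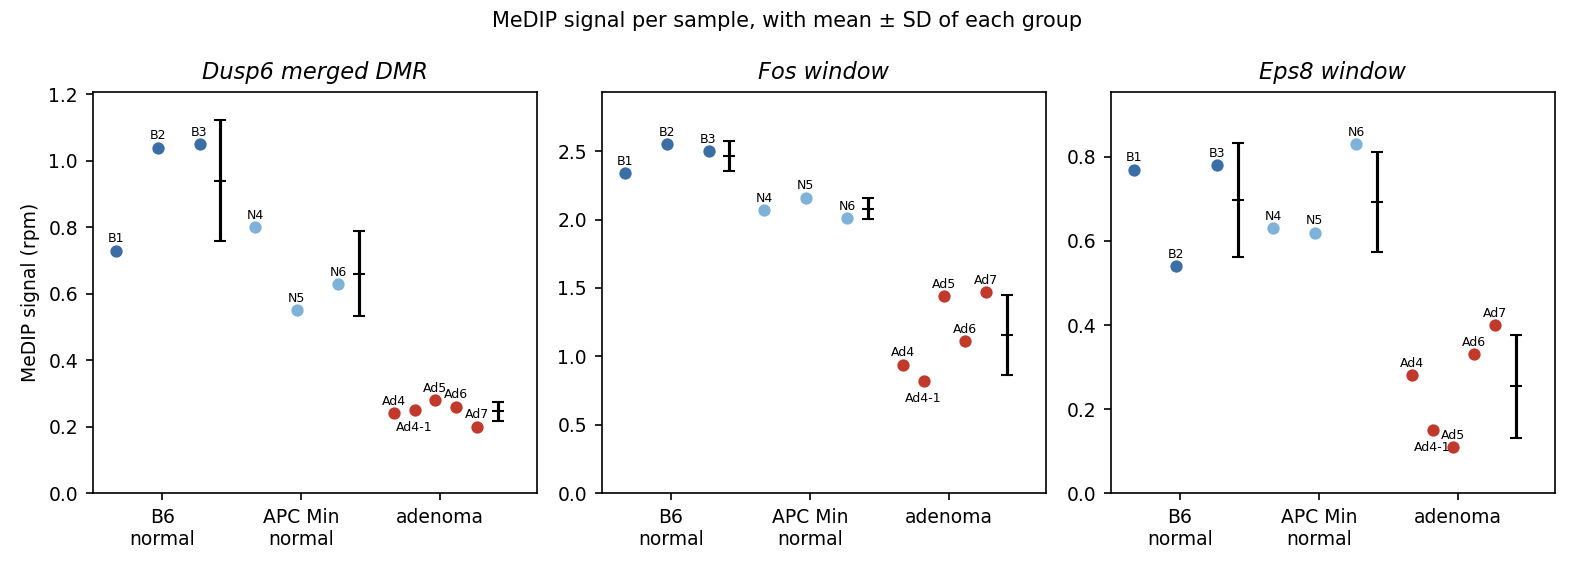
MeDIP signal in rpm (y axis, linear from 0) of each sample at the *Dusp6* DMR, the *Fos* window and the *Eps8* window; points are samples and the bar beside each group is its mean ± SD (n = 3, 3 and 5). In each panel every adenoma lies below every normal sample. The *Dusp6* values are medians over 4 windows and the others are single windows, so the spreads of the panels are not comparable.

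The depth behind these values differed between the genes. Taking a fragment as 300 nt, the *Fos* window held 62.3 to 94.7 fragments per normal library and 23.7 to 44.2 per adenoma library, so that counting alone gives a relative SD of 15.0% to 20.5% in adenoma, beside an observed coefficient of variation of 25.3%. The *Eps8* window held only 3.38 to 11.6 fragments per adenoma library, with a counting SD of 29.4% to 54.4%, and the observed coefficient of variation of 47.9% lies within that range. The order of the adenomas at *Eps8* is therefore not resolved at this depth. At *Dusp6* the 4 windows held 2.76 to 14.8 fragments per adenoma library, with a counting SD of 26.0% to 60.2%, and 8.15 to 60.2 per normal library, so a narrow spread of the adenomas at *Dusp6* is not resolved either.

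Within each gene the loss was uneven along the windows. At *Dusp6* the 2 middle windows, which start at 98728501 and 98728751, carried most of the signal. They had means of 1.21 ± 0.300 and 1.17 ± 0.351 rpm in normal intestine and 0.362 ± 0.0887 and 0.314 ± 0.0467 rpm in adenoma, with log2 ratios of -1.62 and -1.74. Only 5 listed hypomethylated windows had a larger log2 loss than the second of these. The outer *Dusp6* windows had 0.433 ± 0.134 and 0.363 ± 0.146 rpm in normal intestine and log2 ratios of -1.05 and -1.28. In the first of them N6, at 0.22 rpm, lay below Ad6, at 0.25 rpm, both from animal 6. This was the single case in 44 window and pair comparisons in which an adenoma was not below normal tissue of its own animal. All 11 member windows were listed for lower signal in adenoma, and in 8 of them adenomas and normal samples did not overlap. Most of the 44 outcomes were thus fixed by the choice of windows, and the comparisons share samples and overlapping windows. For these reasons nothing is read from the count over the 44.

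At *Fos* the first window, which starts at 86817001, had 1.79 ± 0.153 rpm in normal intestine and 0.966 ± 0.239 rpm in adenoma, a log2 ratio of -0.86. The third, which lies wholly in the 3′ UTR, had 0.755 ± 0.153 and 0.372 ± 0.107 rpm and a log2 ratio of -0.93, and there N6 and Ad7 were tied at 0.51 rpm. The normal level differed 3-fold between the last 2 windows of *Fos*, from 2.27 to 0.755 rpm, alongside a fall from 16 to 8 CpG sites, while the log2 ratios were nearly equal.

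At *Eps8* the normal signal was highest in the window farthest from the 5′ end of the gene, which starts at 137530751. Its values were 0.78, 0.88 and 1.74 rpm in B1, B2 and B3, 0.69, 1.10 and 1.34 rpm in N4, N5 and N6, and 0.38, 0.24, 0.37, 0.42 and 0.62 rpm in the adenomas in the order above. B3 was high there and the groups still did not overlap. From this window towards the 5′ end of the gene the log2 ratios were -1.32, -1.29, -1.01 and -0.73. In the window nearest the 5′ end, Ad4-1 at 0.30 rpm overlapped the normal range of 0.26 to 0.43 rpm. Over the 3 genes, adenomas and normal samples did not overlap in 8 of 11 windows and in 3 of 3 merged DMRs, where 51.6% of the listed hypomethylated windows showed no overlap. Since the lists were made on this contrast, nothing is read from that count.

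**Figure D2:**
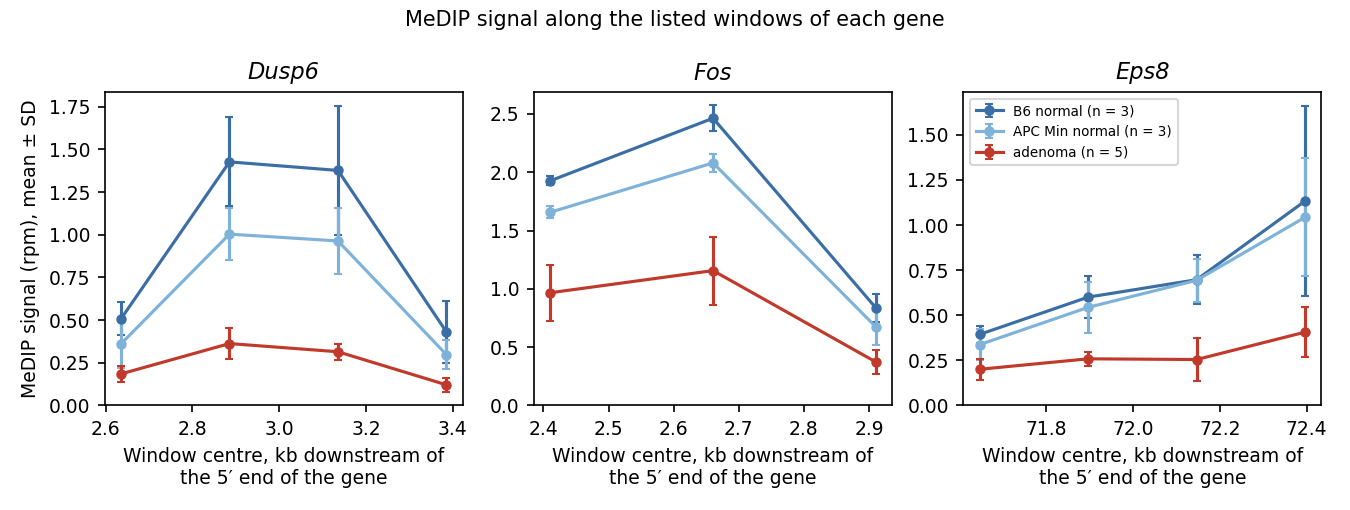
Mean MeDIP signal in rpm (y axis, linear from 0) of the listed windows of each gene against the distance of the window centre from the 5′ end of the gene in kb; bars are SD over samples. The adenoma line lies lowest in each window, and the B6 and APC Min normal lines run apart at *Dusp6* and *Fos* and nearly together at *Eps8*.

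The merged DMRs had means of 0.800, 1.79 and 0.632 rpm in normal intestine and 0.246, 0.966 and 0.272 rpm in adenoma at *Dusp6*, *Fos* and *Eps8*. Among the 8845 hypomethylated DMRs, 0.113%, 16.4% and 3.67% had a larger log2 loss than these, in the same order, and 8.95%, 0.170% and 18.3% a higher level in normal intestine. The DMRs were long, since 41 of 8845 (0.464%) were as long as the 1250 bp of *Dusp6* and *Eps8* or longer. Of all listed hypomethylated windows 21.5% had a ratio of group means past 2, as did 8 of the 11 member windows, a count that the choice of the lists again fixes in part.

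**Figure D3:**
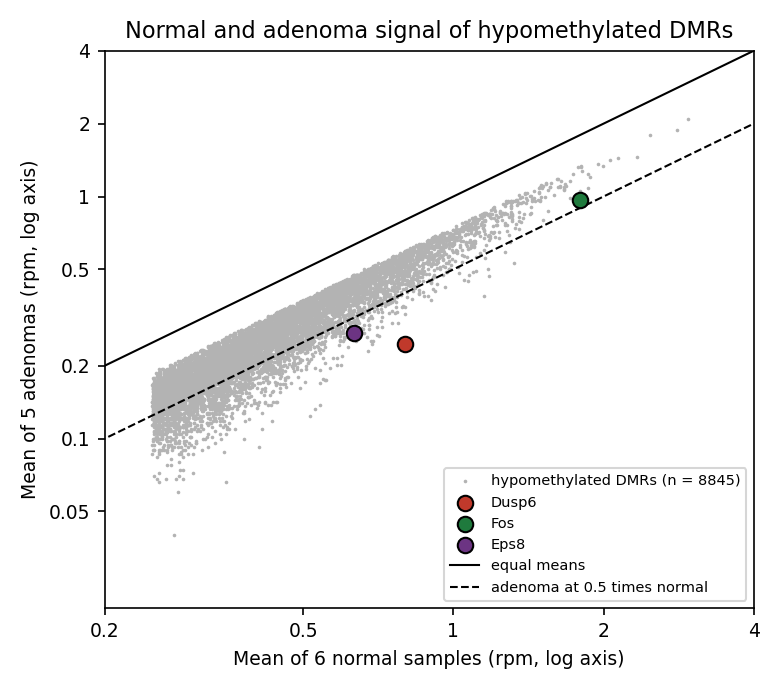
Mean MeDIP signal of the 5 adenomas against that of the 6 normal samples, both in rpm on log axes, for the 8845 hypomethylated DMRs (grey) with *Dusp6*, *Fos* and *Eps8* marked. *Dusp6* lies on the lower edge of the cloud at 0.800 and 0.246 rpm, *Fos* near its upper right end at 1.79 and 0.966 rpm, and *Eps8* below the line of 0.5 times normal.

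Within 1 animal the adenoma was lower than the normal tissue in all 4 pairs at each of the 3 rows named by the rule. The groups did not overlap at these rows, so no pair could have gone the other way. At the *Dusp6* DMR adenoma had 30.0% and 31.2% of the normal signal in animal 4, 50.9% in animal 5 and 41.3% in animal 6. At the *Fos* window the shares were 45.4%, 39.6%, 66.7% and 55.2%. At the *Eps8* window the shares were 44.4%, 23.8%, 17.7% and 39.8%, where the order rests on few fragments, and in the merged *Eps8* DMR they were 41.5%, 38.5%, 41.2% and 39.1%. The mean over the 3 animals of the paired log2 difference was -1.17 ± 0.33 (SD, n = 3) at *Dusp6*, -0.86 ± 0.31 at *Fos* and -1.56 ± 0.45 at *Eps8*. Within library series 4, 9 and 10 the log2 ratios were -1.62, -0.96 and -1.83 at *Dusp6*, -1.35, -0.52 and -1.14 at *Fos*, and -1.39, -2.28 and -1.13 at *Eps8*. Adenoma was below normal in each series at each of the 3 rows, which the lack of overlap between the groups again fixes. Series 9 holds 1 adenoma and series 10 holds 1 sample of each tissue.

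The lists were not made on the difference between the 2 normal groups, so it could be tested, within a limit. It asks whether normal tissue of APC Min mice already differed from that of B6 mice. The lists pooled both groups as normal, so windows where 1 of these groups lay at the adenoma level were less likely to be listed. At *Dusp6* B6 intestine had 0.940 ± 0.182 rpm (SD, n = 3) and APC Min intestine 0.660 ± 0.128 rpm (SD, n = 3) over the DMR, and the groups were separated except that B1, at 0.73 rpm, lay below N4. At the *Fos* window the means were 2.46 ± 0.110 and 2.08 ± 0.0755 rpm, and each B6 sample was above each APC Min sample. At the *Eps8* window they were 0.697 ± 0.136 and 0.693 ± 0.118 rpm. The adenomas were lower than either group, with log2 ratios of -1.74 against B6 and -1.26 against APC Min at *Dusp6*, -1.06 and -0.82 at *Fos*, and -1.30 and -1.29 at *Eps8*. These 2 contrasts share the adenomas.

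No difference between the normal groups passed the test. In limma over the 17690 listed windows, the log2 difference of APC Min minus B6 was -0.48 ± 0.18 (SE) at the *Dusp6* window starting at 98728501 (unadjusted p = 0.0130, adjusted p = 0.969) and between -0.49 and -0.44 in the other 3. At the *Fos* window it was -0.24 ± 0.15 (adjusted p = 0.999 in limma), and at the *Eps8* window -0.00 ± 0.19 (adjusted p = 0.999 in limma). By limma 0 of 11 member windows and 0 of all listed windows (0%) had an adjusted p under 0.05. At an unadjusted p under 0.05 there were 3 member windows, all at *Dusp6* and overlapping, against 838 of all windows (4.74%). The sign was lower in APC Min in 11 of 11 member windows, the *Eps8* window at -0.00 included, and in 55.2% of all windows. The member windows overlap within each of the 3 genes and are all hypomethylated, while all windows include 6123 hypermethylated ones, so the 2 shares are not of like sets. Each B6 sample was above each APC Min sample in 2 overlapping windows of *Fos*, where 5.02% of all windows had that order. The opposite order was found in 0 member windows and in 3.24% of all windows. An exact two-sided permutation test of 3 against 3 samples cannot go below p = 0.10, and gave 0.100 at those 2 windows. Of the library series, 4 alone holds both normal groups, and there N4 minus the mean of B1 and B2 was -0.23 at the *Fos* window and between -0.21 and 0.13 at the *Dusp6* windows. The genotype and the library series can otherwise not be told apart. With 3 samples a group, these tests do not show that the normal groups were alike.

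**Figure D4:**
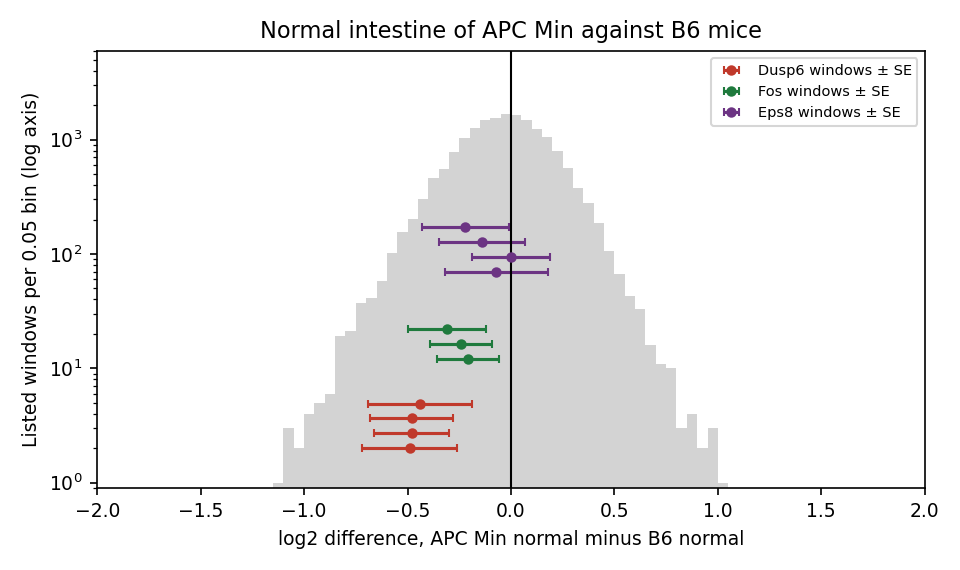
Histogram of the log2 difference of APC Min normal minus B6 normal intestine over the 17690 listed windows (grey, log axis of counts), with the 11 windows of the 3 genes and their SE in colour; the height of the coloured points only separates them. The *Dusp6* windows lie between -0.49 and -0.44 and the *Eps8* windows between -0.22 and -0.00, inside the grey distribution.

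Input DNA, sequenced without the antibody, was available for B3, N4 and Ad7. At the *Dusp6* DMR it was 0.37, 0.11 and 0.29 rpm, where the MeDIP libraries of the same samples had 1.05, 0.80 and 0.20 rpm. MeDIP in Ad7 thus lay below its own input, in each of the 4 overlapping windows as well. This order rests on few fragments, 2.47 to 3.86 in the Ad7 input and 3.93 to 5.78 in Ad7 MeDIP over these windows. At the *Fos* window input was 0.46, 0.06 and 0.24 rpm beside MeDIP values of 2.50, 2.07 and 1.47 rpm. At the *Eps8* window it was 0.43, 0.21 and 0.02 rpm beside 0.78, 0.63 and 0.40 rpm. Input libraries had 3228908 to 5931425 reads and 0.198 to 2.48 fragments in the *Fos* and *Eps8* windows, so input at 1 region is too sparse to correct the MeDIP values, and its part in the differences was not tested.

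Beyond the gene bodies the nearest listed regions were some way off. The next hypomethylated DMR lay 20.9 kb upstream of *Dusp6*, with 0.350 ± 0.0718 rpm in adenoma against 0.600 ± 0.0268 rpm in normal intestine, and 40.6 kb upstream of *Fos*, with 0.850 ± 0.0951 and 1.20 ± 0.135 rpm. On the 3′ side of *Eps8*, the neighbouring *Ptpro*, a receptor-type tyrosine phosphatase gene, held a hypomethylated DMR 19.5 kb away (0.248 ± 0.0563 against 0.417 ± 0.0602 rpm) and a hypermethylated one 15.3 kb away (0.686 ± 0.0623 against 0.492 ± 0.0821 rpm). The nearest hypermethylated DMRs of *Dusp6* and *Fos* were 129 and 59.5 kb away.

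The profiles of the 3 DMRs over the 11 samples resembled each other through the group difference that selected them. Pearson's r of the log2 values was 0.87 for *Dusp6* and *Fos*, 0.86 for *Dusp6* and *Eps8* and 0.86 for *Fos* and *Eps8* (n = 11 samples). After each sample was set against the mean of its own tissue, r was 0.20, -0.21 and 0.24. Among 2845 hypomethylated DMRs with at least 0.5 rpm in normal intestine, those most like the *Dusp6* DMR were at *Tcf7l1* (r = 0.98), which encodes a TCF transcription factor of the Wnt pathway, *Pdgfb* (r = 0.97), a platelet-derived growth factor chain, and *Ldhb* (r = 0.96), a lactate dehydrogenase subunit. The DMRs most like the *Fos* window were at *Tiam2* (r = 0.97), a Rac exchange factor, *Bcar3* (r = 0.97), an adaptor protein, and *Zfp608* (r = 0.95), a zinc finger gene. Those most like the *Eps8* window were at *St6galnac2* (r = 0.97), a sialyltransferase, *Nme7* (r = 0.96), of the nucleoside diphosphate kinase family, and *Cyfip2* (r = 0.96), of the actin-regulating WAVE complex. With each sample set against the mean of its own tissue, these 3 had r of 0.94, 0.90 and 0.87. That part of the match rests in part on the order of the adenomas at *Eps8*, which is not resolved at this depth. The median r over all 2845 DMRs was 0.78, 0.75 and 0.74 for the 3 rows, since the adenoma difference is common to the list.

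Other genes of the pathway were taken from a list of 76 symbols, of which 75 were found in the annotation. A hypomethylated DMR lay in the body or promoter of 22 of the 75 genes, where 14.2% of the 22380 protein-coding genes held one. These 22 include *Dusp6*, *Fos* and *Eps8*, which were chosen for it, and without them it was 19 of 72 genes (26.4%). A hypermethylated DMR lay in 10 of the 75, where 11.1% of protein-coding genes held one, and 4 genes held both. Longer genes held DMRs more often. A hypomethylated DMR was found in 1.23% of genes of up to 5 kb, which include *Dusp6* and *Fos*, and in 48.1% of genes of 100 kb or more, which include *Eps8*. The median length was 18.8 kb in the list and 15.4 kb over all genes.

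Of the 17 genes listed as feedback inhibitors, not all of which act on ERK, 7 held a hypomethylated and 3 a hypermethylated DMR. The 7 include *Dusp6*, and over all protein-coding genes the shares were 14.2% and 11.1%. *Spry1*, a Sprouty inhibitor of receptor signalling, had 0.216 ± 0.0371 rpm in adenoma against 0.425 ± 0.118 rpm in normal intestine (log2 ratio -0.84). *Spred1*, a related inhibitor of Ras, had 0.114 ± 0.0305 and 0.253 ± 0.0993 rpm (-0.89). *Dusp4*, a nuclear phosphatase of ERK, had 0.140 ± 0.0644 and 0.267 ± 0.0344 rpm (-0.74), and *Errfi1*, which binds and inhibits the EGF receptor, had 0.206 ± 0.0730 and 0.343 ± 0.0700 rpm (-0.62) in the single listed DMR that touched a promoter of the list. *Spred2* held 2 hypomethylated DMRs (-0.44 each). *Dusp10*, which acts on JNK and p38, held 1 of each direction (-0.49 and 0.43), and *Dusp8* (0.57) and *Dusp16* (0.82) were hypermethylated. *Dusp6* had the largest loss of these genes.

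Where 14.2% and 11.1% of all protein-coding genes held a hypomethylated or a hypermethylated DMR, 4 and 1 of the 19 nuclear targets did. Besides *Fos* they were *Fosl2*, another Fos family member, with 0.254 ± 0.0527 and 0.417 ± 0.0889 rpm in adenoma and normal intestine (-0.62), the ETS factors *Elk3* with 3 DMRs (-0.62, -0.50 and -0.42) and *Etv5* with 2 (-0.47 and -0.49), and in the other direction *Etv4* (0.47). The level at *Fos*, 1.79 rpm in normal intestine, was the highest of all DMRs in the list. Among the nuclear targets with no listed DMR were the immediate early genes *Fosb*, *Jun*, *Junb*, *Egr1*, *Ier2* and *Myc*. All of these but *Fosb* are of up to 5 kb, a length at which 1.23% of genes held a hypomethylated DMR.

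Beside the counts that follow, 14.2% and 11.1% of all protein-coding genes held a hypomethylated or a hypermethylated DMR. In genes of 100 kb or more, which include *Nrg1*, *Erbb4*, *Gab1*, *Braf* and *Eps15*, the shares were 48.1% and 36.8%. Of the 8 ligands, *Ereg* (-0.87), *Epgn* (-0.57), *Tgfa* (-0.77 and 0.61) and *Nrg1* (-0.73, -0.50 and 0.47) held DMRs. Of the 4 receptors, *Erbb2* was hypermethylated in 2 DMRs (0.41 and 0.52) and *Erbb4* hypomethylated in 1 (-0.46), while *Egfr* itself held none. Among adaptors and kinases there were *Grb2* (0.70), *Sos2* (-0.72), *Gab1* (-0.65 and -0.44, and 0.50 and 0.99) and *Braf* (-0.60). Of the 10 genes of the *Eps8* family and its partners, *Eps8* and the endocytic adaptor *Eps15* (-0.60) were hypomethylated. *Eps8l1*, a relative of *Eps8*, was hypermethylated, with 0.368 ± 0.110 rpm in adenoma against 0.143 ± 0.0561 rpm in normal intestine (1.11). With the ratio of group means past 2, 6 genes of the list remained, or 4 of 72 without the chosen members, where 4.39% of all protein-coding genes held such a DMR of either direction. These were *Dusp6*, *Eps8*, *Ereg* and *Spred1* on the hypomethylated side and *Gab1* and *Eps8l1* on the other.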

How the data were processed

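MeDIP-seq was available for 11 ileum samples, input DNA for 3 of them. Reads were mapped by the authors to the mm9 genome (Bowtie 0.12.5). Unique hits were extended to 300 nt, and mean coverage was taken in 500 bp windows spaced by 250 bp. The deposited rpm values are this coverage per 1000000 uniquely aligned reads of the library, at 2 decimals, for windows that had passed the authors' criteria. Depth was taken from the read totals of the study. Merged DMRs of 3 or more windows held the per-sample median of their windows in 373 of 373 hypomethylated cases, within 0.01 rpm, so the *Fos* DMR equals its first window. Columns with the authors' means, variances, ratios and Wilcoxon p-values were not used. The gene table holds column descriptions and was not used, so RNA of the 7 RNA samples was not analysed here.

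The members, gene lists and alternatives were chosen with earlier results of these data known. Genes came from gencode vM1 on NCBIM37, the build named mm9, and all regions lay within its chromosomes. As a further check, the study's bisulfite primers were looked for in the converted sequence of the DMRs, and 2 of 2 were found at *Dusp6*, 2 of 2 at *Fos* and 1 of 2 at *Eps8*. In the pathway list, *Hras* was matched as *Hras1* and *Spry3* was not matched. The genes named were the 3 members, the 3 genes with the highest Pearson r to each, and pathway genes that hold a listed DMR, of which 1 is not reported here. Also named, without values, are 7 pathway genes without one, chosen after their values had been seen, and *Ptpro* as a neighbour.

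Ratios are log2 of group means after adding 0.05 rpm. The normal groups were compared with limma 3.58.1 in R 4.3.3, with a mean-variance trend, on log2(rpm + 0.05) of all 17690 listed windows and with Benjamini-Hochberg adjustment over all of them. The script was tested on simulated data. The library series and the replicates are named as in the sample titles. Nothing pools animals, but the 2 adenomas of animal 4 share a mouse. Normal tissue and adenoma of animals 4, 5 and 6 are paired through the animal in the labels, and over all merged DMRs the deviations of the 4 same-animal pairs from their group means had an r of -0.05 to 0.03, against -0.03 to 0.07 for 11 pairs of different animals.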

Additional observations from a re-analysis of the deposited data

Results flagged for a closer look

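Of 28 sets of values looked at (5 adenomas or 6 normal samples in each of 11 windows and 3 DMRs), 1 held a sample far from the others, where chance flags about 1 in 20. In the *Eps8* window that starts at 137531501, Ad4-1 had 0.30 rpm and the other 4 adenomas 0.15 to 0.19 rpm. The gap was 0.733 of the range of the 5 values. Ad4, from the same animal, had 0.19 rpm.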

How the results depend on the processing

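The log2 ratio of adenoma over normal intestine stayed below 0 in each of the alternatives run for the 3 genes. No choice of samples could have turned its sign, since adenomas and normal samples did not overlap at the 3 rows named by the rule. With 0.5 rpm added in place of 0.05, the ratio was -0.80 at *Dusp6* and -0.66 at *Eps8*, which follows from the larger constant against low values. Within library series 9 it was -0.96 at *Dusp6*, -0.52 at *Fos* and -2.28 at *Eps8*, and it was -1.83 at *Dusp6* within series 10 and -1.35 at *Fos* within series 4. The cause was not tested. With the animal as a replicate block it was -1.17 at *Dusp6*, -0.86 at *Fos* and -1.56 at *Eps8*, and the block changed no direction. Leaving out 1 sample gave -1.60 to -1.43 at *Dusp6*, -1.04 to -0.85 at *Fos* and -1.48 to -1.13 at *Eps8*. Other alternatives moved it by less than 1 SD between samples, including the merged DMR (-0.86 at *Fos* and -1.08 at *Eps8*) and the mean over a gene's windows, both chosen after seeing the data. The 14 listed rows stayed 14 with the gene body alone, 5000 bp upstream or the longest coding transcript, and were 11 with complete separation and 10 with a ratio past 2. Of the 75 genes of the pathway list, 28 held a DMR of either direction, and 25 of them were other than *Dusp6*, *Fos* and *Eps8*. Of the 22380 protein-coding genes, 3188 held a hypomethylated and 2483 a hypermethylated DMR, with 876 in both counts. With promoters only, 1 gene of the list remained. Over all protein-coding genes, 167 had a hypomethylated and 183 a hypermethylated promoter DMR. With a ratio past 2, 6 genes of the list remained, where 4.39% of all protein-coding genes held such a DMR. For APC Min against B6 normal intestine, limma called 0 member windows under each alternative, leaving out each sample included (0 to 0), with merged DMRs as features too. Over all windows it called 7 without N6 and 1 without B1. RNA expression of the 3 genes and its alternatives were not run, since the gene table used here holds no values.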
